A study of Mus musculus with 12 samples.

Results

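The comparison between DNMT3B N779A and wild-type (WT) DNMT3B rested on 4 of the 12 lines of the series: 2 that express the mutant and the 2 WT lines labelled as biological replicates 1b and 2b. All 4 are mouse ES cells of the DNMT TKO genotype, which lack Dnmt1, Dnmt3a and Dnmt3b, and which were transfected with the pPyCAGIZ vector carrying human DNMT3B, either WT or with the N779A change of an asparagine to alanine, and kept under Zeocin. DNA methylation was profiled by eRRBS, in which MspI, BfaI and MseI cut the genome and bisulfite turns unmethylated cytosines into bases read as T. The other 2 WT lines, labelled 1a and 2a, and 2 lines of the same TKO genotype with another mutant, DNMT3B K777A, served as references in places. The lines of each construct were independently derived. Whether a given line is a single-cell clone or a pool is not given in the sources used here.

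DNMT3B is a de novo DNA methyltransferase, an enzyme that adds a methyl group to the cytosine of CpG sites that carry none on either strand. DNMT1, which copies methylation onto the new strand after replication, is missing from these cells, which leaves the transfected enzyme as the DNMT they carry. The asparagine lies in the target recognition domain, the part of the enzyme that reads the bases of the CpG and those after it. Positions are counted from the CpG: +1 is the base right after its G, and +2 and +3 are the next bases. A CpG has such bases on both strands, and the file has 1 entry for each CpG of the genome, taken here to cover both strands. An ACGT site, for example, is followed by T on both strands and a TCGA site by A on both strands.

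Sequences that set the mutant apart are shown first. The contexts, in which the CpG and 3 bases on either side of it are fixed, were read from the GRCm38 genome and merged with their reverse complement. Capitals mark the CpG with the base on each side of it. The 6 contexts with the largest fall and the 6 with the largest rise in N779A cells, all past the threshold and with no overlap between the groups, were as follows.
Fell, rank 1: cgTCGAca
Fell, rank 2: cgTCGAcc
Fell, rank 3: ggTCGAca
Fell, rank 4: ggTCGAac
Fell, rank 5: atTCGAcc
Fell, rank 6: agTCGAcc
Rose, rank 1: ccGCGCgg
Rose, rank 2: ccGCGCcg
Rose, rank 3: cgGCGCcg
Rose, rank 4: gaCCGCgc
Rose, rank 5: gcGCGCga
Rose, rank 6: acGCGCcg
All 6 that fell have TCGA at their centre, and in all 6 the A after the CpG is followed by C on at least 1 strand. The 6 that rose are made of C and G but for 1 A in 3 of them.

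The 4 lines had 16174462 to 21173305 reads on autosomal CpG sites. These reads covered 6651282 and 6414480 sites in the N779A lines against 3497578 and 4602413 in the WT lines, at 3.04, 3.30, 4.62 and 3.56 reads per covered site. Of the 20383623 autosomal CpG sites, 736566 had a read in all 4 lines and 1240 had 10 or more reads in each of them. Site methylation is the share of a site's reads that were methylated, and a level is the mean over covered sites. Two-sided exact permutation tests of 2 lines against 2 cannot give a p below 0.33. This is the p of every level below at which both N779A lines lay on the same side of both WT lines, so that no single level passed a threshold of 0.05. Where the lines overlapped, p was 0.67 or 1.

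Averaged over all covered autosomal sites, N779A cells were less methylated than WT cells. The level was 11.3% and 12.5% in the N779A lines against 13.8% and 12.7% in the WT lines, or 11.9% ± 0.882 against 13.2% ± 0.800 (SD, n = 2 each). The lower WT line and the higher N779A line were 12.7% and 12.5%, so the groups separated by little. On the sites with a read in all 4 lines they overlapped, at 11.01% and 12.3% against 13.1% and 12.2% (exact permutation test, two-sided, p = 0.67). The mean difference was −1.33 percentage points over all covered sites and −1.02 on the shared sites. It was −3.93 against the other 2 WT lines of the series, labelled 1a and 2a. Line 2a covered only 1005962 autosomal sites, at 15.8 reads per site, and line 1a covered 4982816 at 4.03. On each of the 19 autosomes, the N779A mean was below the WT mean, by 1.06 to 1.58 percentage points, and on 16 of them the lines of the groups did not overlap.

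The order of the groups differed with CpG density. Density was the number of CpG sites within 200 bp of sequence centred on the site. Isolated sites, with 1 to 2 CpG in the window, had overlapping levels of 12.1% and 14.0% in N779A and 14.9% and 13.7% in WT cells. At 3 to 5 CpG, N779A was lower, with 12.7% and 14.6% against 16.2% and 14.8%. At 6 to 11 CpG it was lower as well, with 10.6% and 11.8% against 13.4% and 12.3%. Dense sites, with 12 or more CpG, as in CpG islands, had little methylation in all lines, and here the N779A lines were the higher ones, at 2.33% each against 1.99% and 1.84% in WT cells. The ratio of N779A to WT was 0.870 at 6 to 11 CpG and 1.22 at dense sites. The N779A lines were also higher on the dense sites covered in all 4 lines, at 1.76% and 2.12% against 1.59% and 1.64%. WT lines 1a and 2a had 2.20% and 2.94% at dense sites with 16.4% and 15.3% over all sites. At dense sites the N779A lines lay above line 1a and below line 2a, so their higher level did not hold against both. On sites with 10 or more reads the mean difference was −2.96 percentage points, but dense sites made up 23.6% and 33.2% of these in the N779A lines against 12.02% and 17.4% in WT cells. Within the density classes, from isolated to dense, the difference at 10 reads was −0.905, −1.77, −2.02 and 0.339 percentage points.

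Genome regions gave the same split between promoters and the rest. Promoters of protein-coding genes (from 1000 bp before to 500 bp after the start) mostly lack methylation where they are rich in CpG. They had 2.19% and 2.24% in the N779A lines against 2.01% and 1.86% in the WT lines. On promoter sites with 10 or more reads this difference turned slightly negative, at −0.0111 percentage points, and against WT lines 1a and 2a it was 0.0216. Exons had 11.2% and 12.3% in N779A against 13.7% and 13.1% in WT cells. Introns had 12.5% and 14.2% against 15.6% and 14.5%. Intergenic sites had 11.4% and 12.9% against 14.2% and 12.7%, and there the lines overlapped.

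**Figure D1:**
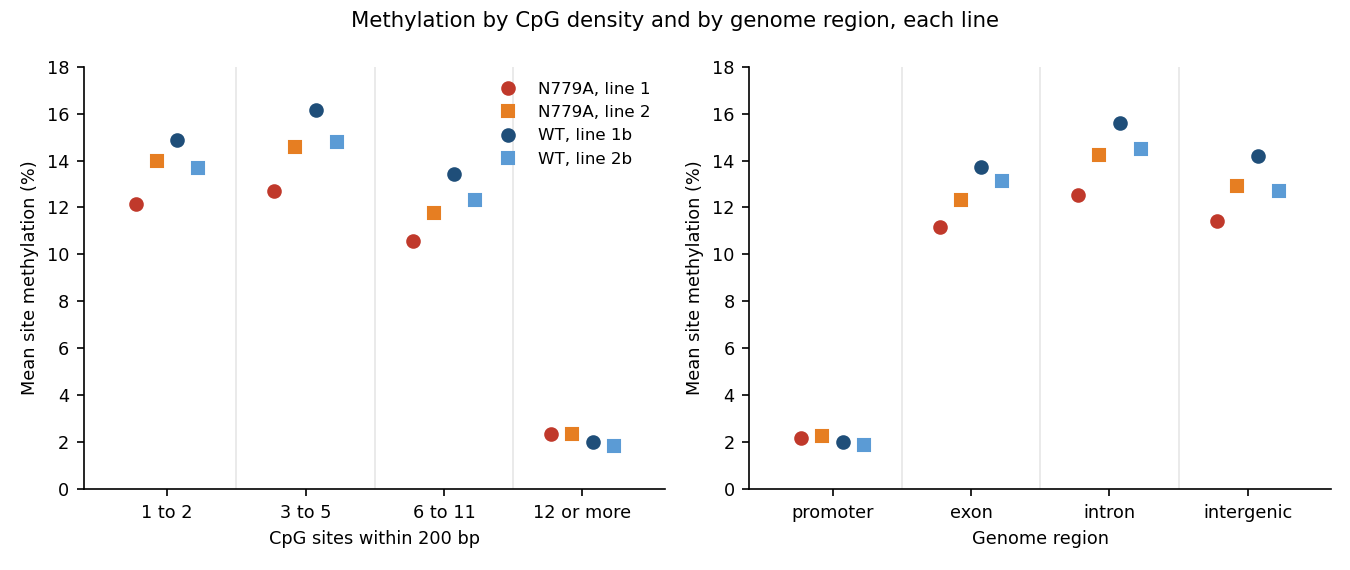
Mean methylation of covered autosomal CpG sites (percent, vertical axes) in each of the 4 lines, by the number of CpG sites within 200 bp (left) and by genome region (right). Each point is a line. The N779A lines lie below the WT lines at 3 to 11 CpG, in exons and in introns, and above them at 12 or more CpG and in promoters.

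The bases next to the CpG separated the lines far more than density or region. The 10 inner classes are the CpG with the base before and after it, read on either strand. Sites followed by A on both strands, TCGA, had 11.4% and 12.7% methylation in the N779A lines against 22.2% and 20.2% in the WT lines, a ratio of 0.568. Sites followed by T on both strands, ACGT, went the other way, with 14.1% and 15.7% against 11.95% and 10.96%, a ratio of 1.30. WT lines 1a and 2a, which were more methylated on the whole, had 14.5% and 13.9% at ACGT and overlapped the N779A lines there, with a difference of 0.659 percentage points. In WT cells TCGA was the most methylated class, and in N779A cells CCGG was, with 17.03% and 18.96%.

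Over all covered sites, every class with an A after the CpG on 1 strand was lower in both N779A lines. CCGA had 14.0% and 15.2% against 20.6% and 18.7%. GCGA had 6.16% and 6.89% against 9.73% and 8.87%. ACGA, which has A at +1 on 1 strand and T on the other, had 10.2% and 11.5% against 13.6% and 12.4%. The remaining 5 classes, among them CCGG and GCGC, overlapped between the groups.

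**Figure D2:**
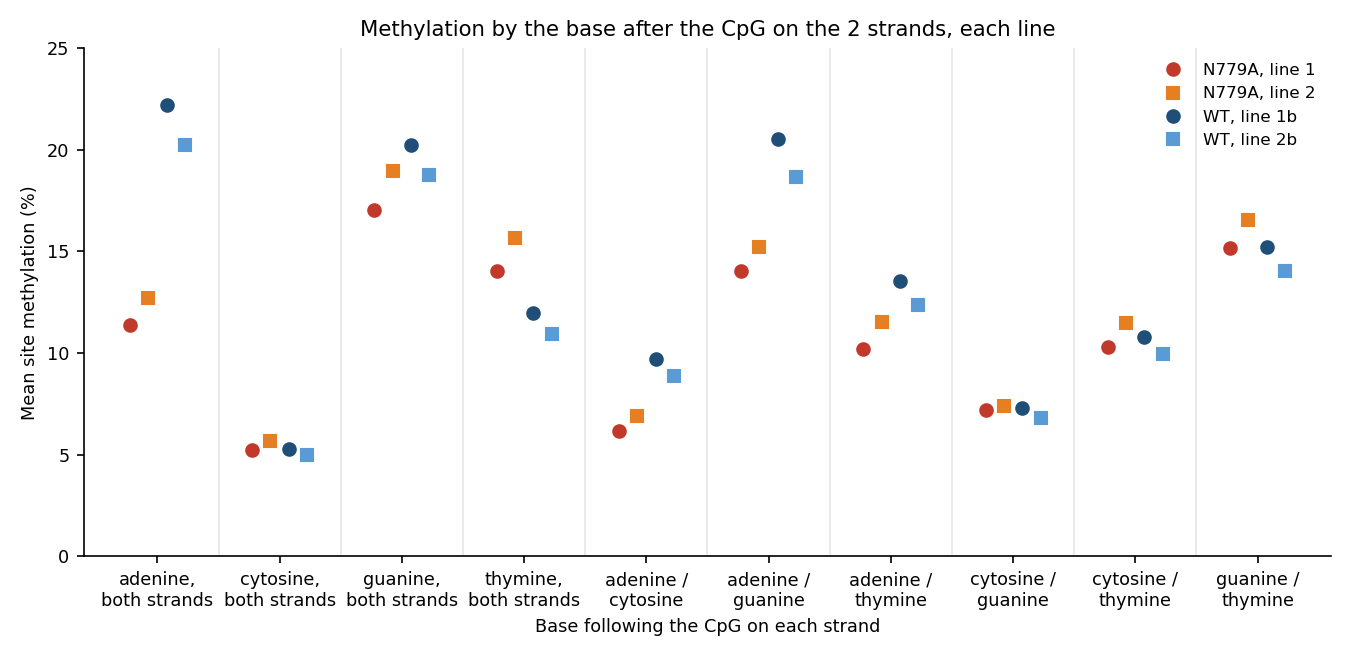
Mean methylation (percent, vertical axis) of the 10 inner classes in each of the 4 lines, named by the base that follows the CpG on the strands. Points are lines. The widest gap is at sites followed by adenine on both strands, where the N779A lines are at 11.4% and 12.7% and the WT lines at 22.2% and 20.2%.

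Expressed as shares, where the mean level after each +1 base is divided by the sum over the 4 bases, A took 24.3% in both N779A lines against 30.97% and 30.7% in the WT lines. T took 28.6% and 28.7% against 23.8% in both WT lines. C took 16.5% and 16.1% against 15.1% and 15.3%, and G took 30.6% and 30.9% against 30.1% and 30.3%. On sites with 10 or more reads the difference in the share of C was 0.00587 percentage points and that of G −0.449, so neither gap held there. The group means differed by −6.54 percentage points for A and 4.86 for T, far more than the lines of a group did from each other. A share is relative, so a lower share of A raises the others.

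The ratio of the TCGA level to the ACGT level removes the overall level of a line. It was 0.810 in both N779A lines against 1.86 and 1.84 in the WT lines. The WT lines 1a and 2a had 1.81 and 1.73. At isolated sites the ratio was 0.793 and 0.797 against 1.83 and 1.82, and at dense sites it was 1.154 and 1.28 against 3.83 and 3.76. In promoters it was 0.889 and 0.892 against 2.07 and 1.92, and in intergenic DNA 0.817 and 0.806 against 1.92 and 1.89. The N779A ratio lay between 0.321 and 0.451 times the WT ratio in every density class and region. At TCGA sites with 12 or more CpG, the level was 3.36% and 3.48% in N779A and 7.11% and 6.24% in WT cells, so the class was lower in the mutant even where the mutant was higher on the whole.

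In DNMT3B K777A cells, which carry alanine in place of a lysine close by, the ratio of TCGA to ACGT was 0.576 and 0.565. Relative to the mean of its line, TCGA was at 1.01 in both N779A lines against 1.16 in both K777A lines. CCGG was at 1.51 in both N779A lines, but at 0.279 and 0.243 in the K777A lines. ACGT was at 1.25 in both N779A lines against 2.01 and 2.05 in the K777A lines, and GCGC at 0.463 and 0.455 against 0.740 and 0.698. At CCGG the mutants differed by 1.25, far beyond the spread within either pair of lines (p = 0.33 by the two-sided exact permutation test, its minimum).

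The higher level at dense sites was unequal among the inner classes. Sites followed by C on both strands, GCGC, had 2.11% and 2.38% in the N779A lines against 1.04% and 1.01% in the WT lines where 12 or more CpG lay in the window. In promoters, GCGC had 1.84% and 2.17% against 0.789% in both WT lines, a ratio of 2.53, on at least 34256 sites per line. The WT lines 1a and 2a had 0.934% and 0.894%, on at least 10347 sites each, so both mutant lines were above all 4 WT lines. Weighted by reads, the promoter level was 1.82% and 2.07% against 0.799% and 0.727%, and on promoter GCGC sites with at least 10 reads it was 1.81% and 1.94% against 0.830% and 0.679%. Over all covered promoter GCGC sites, with no minimum of reads, the share with over 50% methylation was 1.30% and 1.25% against 0.461% and 0.452%. A site with a single read counts here if that read is methylated.

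CCGC sites in promoters had 1.28% and 1.35% in N779A and 0.873% and 0.839% in WT cells. CCGG sites in promoters had 2.96% and 2.89% against 3.0% and 2.85%, which overlapped. CCGA in promoters was lower in the mutant, at 2.66% and 2.57% against 3.20% and 2.93%. GCGA, which also has A at +1 on 1 strand, was higher there, at 1.52% and 1.78% against 1.38% and 1.31%. GCGA was higher at dense sites as well, at 1.75% and 1.97% against 1.54% and 1.53%, and in both places it overlapped with WT lines 1a and 2a. At dense sites ACGA and CCGA overlapped between the groups, at 2.80% and 2.96% against 2.84% and 2.55% for ACGA. At 3 to 5 CpG per window, GCGC had overlapping levels of 6.62% and 7.79% in N779A and 7.72% and 7.20% in WT cells. Cytosines that bisulfite left unconverted are part of levels as low as these, and their share was not analysed here.

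All 2080 contexts had enough sites (at least 20 in every line) to be tested by limma, which used log2 odds of methylation after the median context of each line was set to 0. Of these, 1204 passed an adjusted p of 0.05, which is 57.9%. There were 605 (29.1%) that rose and 599 (28.8%) that fell relative to the median context. Without the centring, 864 passed, 228 of them higher and 636 lower. WT lines 1b and 2b against WT lines 1a and 2a gave 0 of 2079 contexts (0%) with the same limma test and 118 at an unadjusted p under 0.05. Against lines 1a and 2a, 984 contexts passed for N779A. On isolated sites 667 passed, 308 of 2078 on sites covered in all 4 lines, and 23 on sites with 10 or more reads, of which few remain in a context.

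The TCGA and ACGT contexts were split almost without exception. Of 136 TCGA contexts, 130 fell and 0 rose, with a median log2 difference of −0.94, where 28.8% of all contexts fell. Of 136 ACGT contexts, 123 rose and 0 fell, with a median of 0.62, where 29.1% of all rose. CCGA had 173 falling and 7 rising of 256, and GCGA had 138 falling and 3 rising of 256. ACGG had 160 rising and 3 falling of 256. CCGG was mixed, with 41 rising and 29 falling of 136, and ACGA too, with 43 rising and 111 falling of 256. The median over all contexts was 0.06.

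**Figure D3:**
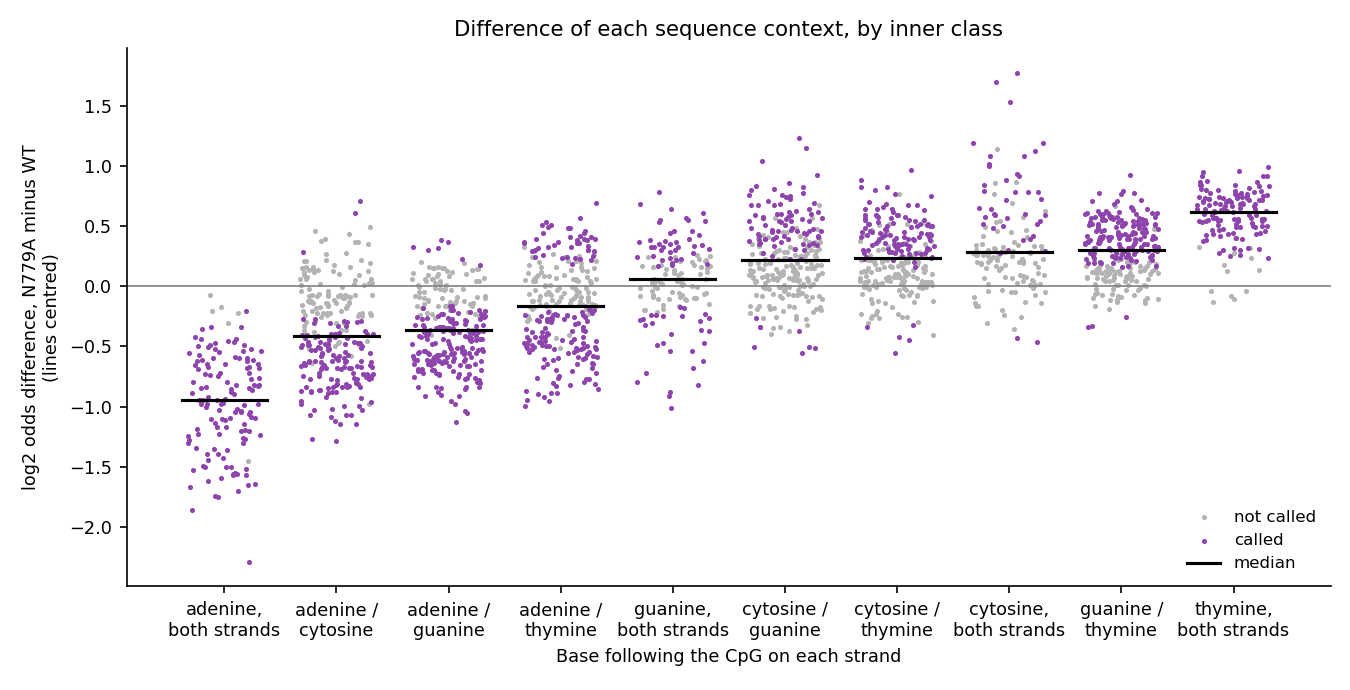
Difference in log2 odds of methylation between N779A and WT cells (vertical axis, lines centred on their median) for the 2080 contexts, grouped by the base that follows the CpG on the strands. Points are contexts, purple where limma gave an adjusted p below 0.05, and black lines are medians. The contexts followed by adenine on both strands have a median of −0.94, those followed by thymine on both strands 0.62.

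Among the 6 that fell most, cgTCGAca had 2.96% and 6.27% in the N779A lines against 19.3% and 20.9% in the WT lines, on at least 198 sites per line. Its log2 difference was −2.29 ± 0.317 (SE, limma, adjusted p = 0.00283). The context ggTCGAca had 4.95% and 5.998% against 18.6% and 16.96%, a difference of −1.75 ± 0.0841 (SE, limma, adjusted p = 0.00055). The levels of the other 4 were 4.10% to 8.22% in N779A and 14.6% to 23.6% in WT cells. Their sites were seldom in dense sequence, since 1.24% to 22.6% of the covered sites of these 6 contexts had 12 or more CpG in the window. At isolated sites cgTCGAca was not called (limma, log2 difference −2.40, adjusted p = 0.0604), and ggTCGAca was not called at 10 reads per site (limma, log2 difference −1.24, adjusted p = 0.0505).

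The 6 that rose most had low levels in all lines. The context ccGCGCgg had 2.21% and 2.36% in N779A against 0.630% and 0.787% in WT cells, with a log2 difference of 1.77 ± 0.272 (SE, limma, adjusted p = 0.00392). For ccGCGCcg it was 2.50% and 2.88% against 0.732% and 1.152%, a difference of 1.70 ± 0.327 (SE, limma, adjusted p = 0.00828). Here 64.4% to 92.9% of the sites were dense, and the part of density in these differences was not tested. Without N779A replicate 1, cgGCGCcg, gaCCGCgc, gcGCGCga and acGCGCcg were not called, and without N779A replicate 2, cgGCGCcg and acGCGCcg were not. Their log2 differences in these fits were 0.86 to 1.70, all in the same direction. At 10 or more reads per site limma called none of the 6, and on sites covered in all 4 lines it called gcGCGCga alone. At 10 reads gaCCGCgc and acGCGCcg turned sign, at −0.0870 and −0.27, while the other 4 had log2 differences of 0.83 to 1.46. On the shared sites the 5 contexts not called had log2 differences of 0.26 to 1.96. With reads summed, cgGCGCcg and gaCCGCgc were not called, and against WT lines 1a and 2a gaCCGCgc was not (limma, log2 difference 0.54, adjusted p = 0.157).

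A pair of contexts had been singled out in the study. The context of the human SatII repeat, atTCGAtg, had 8.67% and 9.89% in N779A and 19.6% and 19.2% in WT cells, and it fell by 1.08 ± 0.0756 on the log2 scale (SE, limma, adjusted p = 0.000594). At sites with at least 10 reads its difference was −0.65 (limma, adjusted p = 0.218). These values are over mouse autosomal sites with these bases, of which 5977 were covered in any line, and not over SatII repeats. The context agGCGCcc, taken there as a substrate that DNMT3B disfavours, had 2.96% and 2.92% against 3.22% and 2.34% and did not pass (limma, log2 difference 0.25, adjusted p = 0.289).

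Sites with the same +1 and +2 bases on both strands show the first and second base together. In GTCGAC, for example, the CpG is followed by A and then C on both strands. GTCGAC had the widest gap, with 5.71% and 6.66% in the N779A lines against 19.4% and 17.99% in the WT lines, a ratio of 0.331. CTCGAG had 10.1% and 11.2% against 22.5% and 20.4%, and TTCGAA had 10.4% and 11.5% against 22.03% and 20.3%. ATCGAT had the narrowest gap, with 15.8% and 18.1% against 24.6% and 22.3%, a ratio of 0.724. The 4 sites spanned 18.7% to 23.4% by their means in WT cells and 6.18% to 16.96% in the mutant.

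After G at +1 the order of the groups differed with the second base. GCCGGC had 10.6% and 11.7% in N779A against 19.7% and 17.7% in WT cells, a ratio of 0.598. CCCGGG had 19.5% and 21.3% against 24.4% and 22.6%. TCCGGA overlapped, with 19.2% and 21.7% against 20.2% and 18.7%. ACCGGT was higher in the mutant, with 14.1% and 17.3% against 13.7% and 12.5%, but overlapped WT lines 1a and 2a, which had 16.8% and 15.9%. CCGG is the cut site of MspI, which cuts it whether or not the CpG is methylated.

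After T at +1, AACGTT had the largest ratio, with 15.0% and 16.5% against 10.98% and 9.53%, a ratio of 1.54. GACGTC had 16.6% and 18.2% against 13.4% and 11.8%, and TACGTA 26.0% and 28.3% against 22.5% and 20.6%. WT lines 1a and 2a lay below the mutant at AACGTT and GACGTC but overlapped it at TACGTA, with 26.8% and 24.3%. CACGTG, which is also the core E-box bound by MYC-type factors, had 5.58% and 6.44% against 5.54% and 5.39%, a smaller gap that turned against WT lines 1a and 2a, at 6.96% and 7.45%. After C at +1, the 4 sites had levels of 2.55% to 7.24% in the 4 lines, with TGCGCA lower in the mutant and the other 3 higher. Against WT lines 1a and 2a those 3 were lower in the mutant too, since these lines had 3.38% and 3.85% at GGCGCC, 3.98% and 4.003% at CGCGCG, and 6.30% and 6.32% at AGCGCT.

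**Figure D4:**
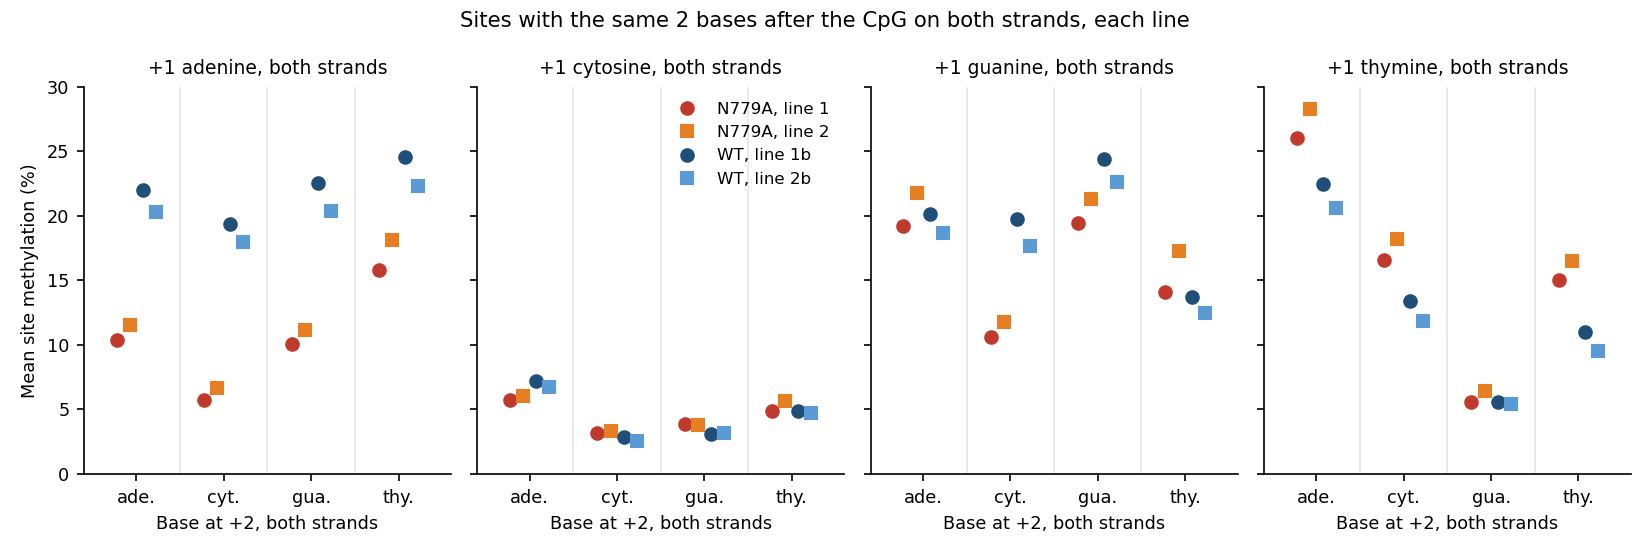
Mean methylation (percent, vertical axis) of sites that have the same +1 and +2 bases on both strands, in each of the 4 lines. Panels are the +1 base, positions within a panel the +2 base. With adenine and then cytosine after the CpG, the N779A lines are at 5.71% and 6.66% and the WT lines at 19.4% and 17.99%.

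To set the outer positions apart from the inner ones, the level with each base at +2 or +3 was divided by the level of its own inner class and averaged over the inner classes, so that 1 is the level of the class. At +2, T was at 1.03 and 1.04 in N779A and 0.973 and 0.968 in WT cells, the widest gap there. C at +2 was at 0.949 and 0.940 against 0.981 and 0.980, and G at 0.877 and 0.862 against 0.907 and 0.911. A at +2, the favoured base in both groups, was at 1.16 and 1.17 against 1.14 in both WT lines. From high to low, T came before C in the mutant and after C in WT cells, between A at the top and G at the bottom in both.

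At +3 the gaps were of like size. A was at 1.12 and 1.13 in the N779A lines against 1.08 in both WT lines. C was at 0.989 and 0.975 against 1.03 in both. G at +3 differed by 0.0098 and T by −0.0187 between the group means, and both turned sign at sites with at least 10 reads. All other bases at +2 and +3 kept their side with each line left out, at isolated sites only, on the shared sites and against WT lines 1a and 2a.

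The gap at +2 differed with the +1 base. After A, C at +2 was at 0.754 and 0.762 in the mutant and 0.862 in both WT lines, and T was at 1.13 and 1.14 against 0.998 and 0.994. After G, C was at 1.01 and 0.978 against 1.096 and 1.1003, and T was at 0.966 and 0.994 against 0.890 and 0.883. After T, the widest gap was for G, at 0.733 and 0.742 against 0.812 and 0.814. After C no +2 base differed by more than 0.0249. At +3, the widest gap was C after T at +1, at 1.01 and 1.00 against 1.11 in both WT lines, followed by G after C, at 1.04 and 1.02 against 0.952 and 0.955. These splits by the +1 base were chosen after the averages at +2 and +3 had been seen. Where the outer bases hold CG, the site has a second CpG next to it, and the part of density in those values was not tested.

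**Figure D5:**
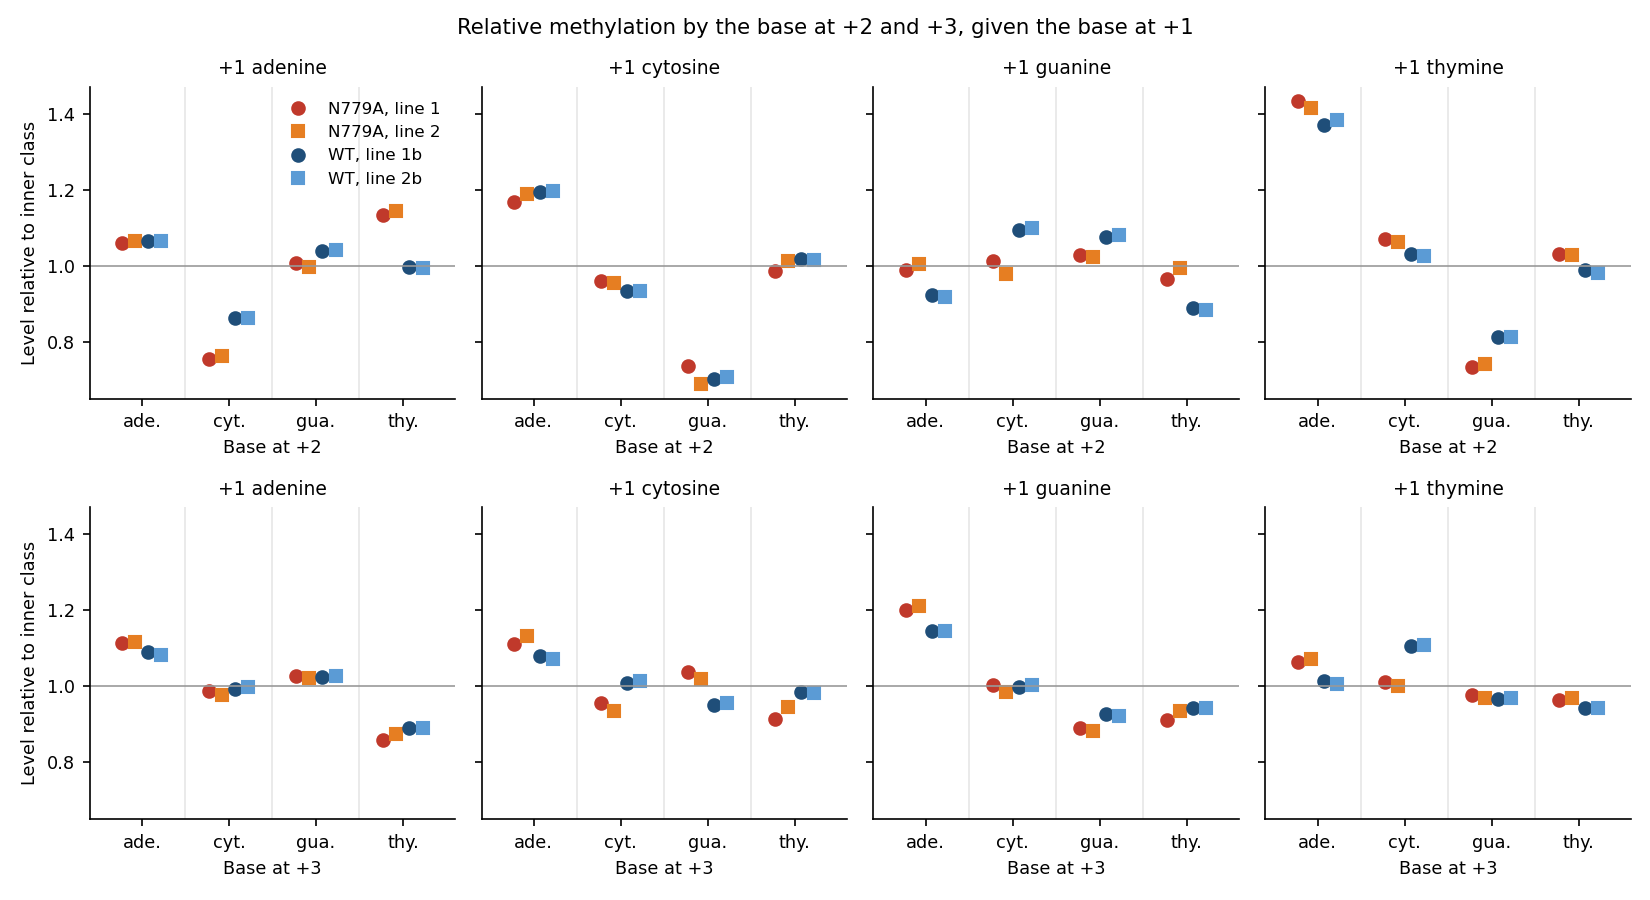
Methylation level relative to the inner class (vertical axes, 1 marked by a grey line) by the base at +2 (upper row) or +3 (lower row), one panel for each +1 base. Points are lines. After adenine, the N779A lines lie below the WT lines for cytosine at +2 and above them for thymine at +2.

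Levels as pairs of bases after the CpG show the same. CGAC had 8.20% and 9.11% in N779A and 14.8% and 13.4% in WT cells, a change of −38.6% in the means. CGAT had 11.999% and 13.4% against 16.6% and 15.1%, a change of −20.1%. CGGC had 13.3% and 14.2% against 17.3% and 15.98%, whereas CGGT overlapped at 12.9% and 14.6% against 14.4% and 13.2%. CGTA was higher, at 17.998% and 19.7% against 17.5% and 16.2%.

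When the lines were centred within each inner class, which takes out the inner bases but not CpG density or region, limma called 630 of 2080 contexts (30.3%). Each context was then read from both strands, which makes 4096, of which 15.3% were called higher and 14.8% lower. With A at +1 and T at +2, 122 of 256 were higher and 10 lower. With A and then C, 27 were higher and 82 lower. With G and then C, 1 was higher and 78 lower, and with G and then T, 76 were higher and 14 lower. With T and then G, 6 were higher and 67 lower. With T at +1 and C at +3, 8 were higher and 83 lower. This limma test was chosen after seeing the data. Without either mutant line 0 contexts passed by limma, in fits where the lone mutant line is assumed to vary like the WT lines, with 698 and 675 at an unadjusted p under 0.05 against 932 with both. On isolated sites and on sites with 10 or more reads limma also called 0, with 581 and 263 at an unadjusted p under 0.05. Against WT lines 1a and 2a it called 185 of 2079 (8.9%).

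In this test, agCCGGct fell by 1.01 ± 0.0949 on the log2 scale (SE, limma, adjusted p = 0.0114), from 19.2% and 17.2% in the WT lines to 8.68% and 10.6% in the N779A lines. It holds the GC after the CpG on both strands. The context agCCGGcc had 9.28% and 10.1% against 19.6% and 16.5%, and cgCCGGcg 3.71% and 3.85% against 7.90% and 8.37%. The highest were again ccGCGCgg and ccGCGCcg. The context atTCGAtg, which had fallen with its class, did not pass within it (limma, log2 difference −0.14, adjusted p = 0.283).

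Along the genome no stretch was called. Of 22683 tiles of 100 kb with at least 50 covered sites in every line, limma called 0 (0%), with 1527 at an unadjusted p under 0.05. With either WT line left out it called some tiles, most of them higher in N779A. In those fits the lone WT line is assumed to vary like the N779A lines. With the replicate number as a block it called 18 tiles, and of 2408 tiles of 1 Mb it called 1.

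Of 10304 protein-coding gene bodies (from 2000 bp after the start, at least 30 covered sites in every line), limma also called 0 (0%), with 545 at an unadjusted p under 0.05, and it called 0 under every alternative run. The lowest adjusted p was 0.876. In simulated data the same test called none of the changed gene bodies and, of the changed tiles, only some with the larger change, so these counts of 0 do not show that levels were equal. The genes are named here by their lowest p only. Trim45 (chr3:100922202-100936920), a tripartite motif protein gene, had 11.3% and 7.78% in N779A and 36.5% and 31.9% in WT cells (limma, adjusted p = 0.876). Dll1 (chr17:15367354-15376872), which encodes a Notch ligand, had 5.0% and 6.50% against 23.1% and 19.4%. The others with the lowest p on that side were Gbp9, Slc25a44, BC107364 and Pick1.

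Higher values in the mutant were found for Gatm (chr2:122594467-122611303), which encodes an enzyme of creatine synthesis, with 19.4% and 19.2% against 8.11% and 8.62%. Rdh12, a retinol dehydrogenase gene (chr12:79208914-79222665), had 20.2% and 21.8% against 4.91% and 8.34%. Ctso, BC035044, Zfp280b and Cers5 were the others with the lowest p on this side. These bodies rest on 30 to 116 sites in the N779A line 1 and WT line 1b, and none passed the adjustment.

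Gene lists gave no call either. Of 24 genes of DNA methylation and demethylation, 16 were tested, with 9 above and 7 below the median gene, and their median log2 difference was 0.12 against 0.00 for all genes. Without centring on the median gene, which shifts the median of all genes to −0.22, 5 were higher and 11 lower. Dnmt3b, whose mouse copy is knocked out, had 9.99% and 21.04% in its body in N779A and 19.9% and 27.9% in WT cells. Dnmt3l, the catalytically inactive cofactor of the de novo enzymes, had 12.6% and 16.6% against 9.39% and 4.62% (limma, log2 difference 1.37, adjusted p = 0.876). Dnmt1 had 12.6% and 18.6% against 18.97% and 14.9%.

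Of 24 housekeeping genes, which are transcribed in most cells, 12 were tested and 0 were called. Over their covered sites the level was 13.6% and 15.9% in the N779A lines against 18.1% and 16.3% in the WT lines. Of the 12, 5 lay above and 7 below the median gene, with a median log2 difference of −0.11. Without centring 3 were higher and 9 lower, against 2837 higher and 7467 lower of all gene bodies. DNMT3B is known to favour transcribed bodies marked by H3K36 trimethylation. Of 25 long neuronal genes, all were tested and 0 called, and 24 lay above the median gene, with a median log2 difference of 0.23. Without centring 12 were higher and 13 lower in the mutant, with a median log2 difference of −0.0012. Their level over all covered sites was 10.0% and 11.5% against 12.1% and 10.2%, which overlapped.

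Single sites show the scale of the reads behind the averages. Of the 1240 sites read 10 times or more in every line, 1227 were considered. Of these, 33.2% did not overlap between the groups, 127 lower and 280 higher in N779A. Without any difference, a site with no tied lines would separate with a probability of 0.33, the minimum p of the two-sided exact permutation test. The share of 33.2% therefore does not by itself show a difference. The excess of higher sites was not tested. It runs against the mean difference of −2.96 percentage points over sites with 10 or more reads in a line. The 3 sites with the widest gap in each direction are given with their surroundings in GRCm38, forward strand, with the CpG and 3 bases on each side in capitals. They are extremes picked for their values, with no test.
Lower, chr16:25565871-25565932: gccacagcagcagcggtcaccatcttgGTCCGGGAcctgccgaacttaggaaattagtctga
Lower, chr10:112587214-112587275: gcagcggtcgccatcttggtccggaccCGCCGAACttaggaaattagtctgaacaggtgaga
Lower, chr6:91600953-91601014: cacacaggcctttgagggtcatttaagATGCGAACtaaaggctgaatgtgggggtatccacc
Higher, chr11:104079273-104079334: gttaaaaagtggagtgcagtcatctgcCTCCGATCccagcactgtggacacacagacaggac
Higher, chr7:39173670-39173731: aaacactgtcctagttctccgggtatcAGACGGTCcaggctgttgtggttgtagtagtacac
Higher, chr11:26899427-26899488: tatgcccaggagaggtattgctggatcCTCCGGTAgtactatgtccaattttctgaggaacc
The site on chromosome 16, in intergenic DNA, had 1 of 17 and 1 of 12 reads methylated in the N779A lines against 16 of 23 and 12 of 14 in the WT lines. The intergenic site on chromosome 10 had 5 of 42 and 0 of 21 against 10 of 14 and 6 of 10. These windows share a stretch of 24 bases, and whether reads from other copies were counted there was not tested. The site on chromosome 6, in an intron of the lincRNA gene Gm45218, had 0 of 10 and 0 of 12 against 8 of 10 and 4 of 10. The intergenic site at chr11:104079303 had 3 of 10 and 6 of 11 methylated reads in N779A and 0 of 16 and 0 of 10 in WT cells. The deepest of the 6, in intergenic DNA at chr11:26899457, had 52 of 137 and 32 of 74 against 3 of 25 and 0 of 17. N779A line 1 had 3.04 reads per covered site, and whether reads from other copies were counted at this site was not tested either. The site on chromosome 7, in an exon of the pseudogene Gm1988, had 8 of 28 and 4 of 14 against 0 of 17 and 0 of 12.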

How the data were processed

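Per the labels and the study's methods, the authors trimmed the eRRBS read pairs with cutadapt, aligned them to mm10 (GRCm38) by means of Bismark 0.18.1 with Bowtie 1.2. The values they deposited are raw counts, not normalized, of methylated and all reads at 21867550 CpG sites per line. All these sites were checked to be CG in GRCm38. Non-CpG cytosines and the phage λ genome were not analysed here.

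Autosomal sites with at least 1 read in a line were used. Regions came from GENCODE vM21, in the order promoter, exon, intron and intergenic. Contexts, 100-kb tiles and gene bodies went through limma 3.58.1 (R 4.3.3; moderated variances with a trend, Benjamini-Hochberg adjustment) on log2((m + o)/(1 − m + o)), where m is the mean site methylation and o is 0.5 divided by the number of sites. On simulated data the test called nearly all changed contexts, but in tiles only some of the larger changes and in gene bodies none. Levels were compared by exact permutation tests over lines. Reads carry no molecular identifiers, so the error is the spread between lines. Nothing in the labels pairs lines across groups. The WT lines compared are those labelled 1b and 2b, whose library names share a prefix with the mutants.

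The members, lists and measures were chosen with earlier results of these data known. Named contexts are the 6 called, non-overlapping ones that changed most either way, and the 2 named by the study. The same was done within inner classes. As no gene was called, the 6 with the lowest p in each direction are named, none from chromosome 18. Alternatives were another minimum of 5 or 10 reads, shared sites, equal weight of reads, the same density mix, no CCGG sites, no centring, summed reads, isolated sites, forward-strand contexts, a replicate block, the other 2 WT lines and each line left out.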

Additional observations from a re-analysis of the deposited data

How the results depend on the processing

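The lower levels of the 4 classes with A at +1, the higher level of ACGT and the ratio of TCGA to ACGT kept their direction under every alternative run over sites of all densities and at isolated sites, although ACGT was only 0.659 percentage points higher against WT lines 1a and 2a, where the lines overlapped. At dense sites alone GCGA and ACGA turned to 0.325 and 0.183 percentage points higher in N779A, and GCGA in promoters to 0.305. The ratio differed from WT by −1.07 to −0.958. The difference in the mean level was −1.95 to −0.706 percentage points with each line left out, −2.96 at 10 reads, with −2.02 to 0.339 within the density classes, and −3.93 against WT lines 1a and 2a. At dense sites the difference became −0.243 percentage points against WT lines 1a and 2a, and in promoters −0.0111 at 10 reads. Against lines 1a and 2a, whose overall level is higher, the difference became −1.65 percentage points for ACGC, −1.15 for ACGG, −1.24 for CCGC and −0.992 for GCGC. At 10 reads these became −0.697, −0.511, −1.38 and −0.309 in the same order, the share of +1 G −0.449 and that of +1 C 0.00587. With each line left out, ACGC ranged from −0.0811 to 1.07 and CCGC from −0.0114 to 0.479. At +3, G became −0.0286 at 10 reads and −0.00123 at isolated sites, and T became 0.0337 at 10 reads. Of the pairs at +2 and +3, A with T ranged from −0.0115 to 0.0132 with each line left out and was −0.0509 against lines 1a and 2a, C with A ranged from −0.00437 to 0.0134 and C with G from −0.0145 to 0.0341. The causes were not tested.

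The 1204 contexts called became 919 to 1105 with each line left out, 667 at isolated sites, 1847 of 4096 forward-strand contexts, 308 on shared sites (added after seeing the data) and 23 at 10 reads per site, where fewer sites remain. Contexts called within the inner class numbered 0 to 489 with each line left out, 0 at isolated sites (581 at an unadjusted p under 0.05 by limma), 0 at 10 reads (263) and 185 against lines 1a and 2a. Tiles called were 0 to 125 with each line left out, and 1 of 2408 tiles of 1 Mb. The log2 difference of AGGCGCCC became −0.0497 at isolated sites, and those of GACCGCGC and ACGCGCCG −0.0870 and −0.27 at 10 reads.

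Lines with the same replicate number did not deviate together (r = −0.035 over contexts, 0.006 over tiles and −0.005 over genes), so the numbers do not pair them. With a replicate block, 1218 contexts, 18 tiles and 0 genes were called, and 600 contexts within the inner class.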

Other observations

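The X chromosome, left out of the comparisons, had 10.3% and 11.7% methylation in the N779A lines against 12.5% and 11.2% in the WT lines, which overlapped (exact permutation test, two-sided, p = 0.67).

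Deeply read sites were less methylated than thinly read ones in 3 of the 4 lines. Sites with exactly 1 read had 11.3% and 12.9% in the N779A lines against 13.5% and 12.7% in the WT lines, and sites with at least 10 reads had 9.88% and 9.68% against 13.7% and 11.8%. Dense sites made up 8.54% and 11.5% of all covered sites in N779A against 10.6% and 10.5% in WT cells. Over 50% methylation was found at 5.91% and 4.30% of those with 10 or more reads in the N779A lines against 11.7% and 7.58% in the WT lines.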
